A study of Mus musculus with 6 samples.

Results

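The genes described here encode 10 surface or secreted proteins of disease-associated microglia (DAM), the state that microglia take up around amyloid plaques, in demyelination and in neurodegeneration. They are Cst7, Clec7a, Cd52, Cd63, Cd9, Lyz2, Gpnmb, Lgals3, Spp1 and Serpine2, and they were chosen by symbol as DAM markers other than Itgax, Apoe and Trem2. All 10 were found among the 16516 genes of the expression table, and all 10 were among the 13151 genes tested. CD11b+ cells were isolated with magnetic beads from the cortex of male C57BL6/J mice aged 8 to 10 weeks. The 4LPS mice had received lipopolysaccharide (LPS), a cell wall component of Gram-negative bacteria, by intraperitoneal injection at 500 µg/kg once a day on 4 days, and the NS mice had received normal saline on the same 4 days. Cells were taken on day 7 after the first injection, and 3 samples per group were sequenced, each pooled from 2 mice. The comparison asks how severe systemic inflammation had altered the expression of these genes in the CD11b+ cells of the brain.

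In the DAM state, microglia lower the surface receptors of the resting cell and raise genes for lipid handling, lysosomal degradation, phagocytosis and adhesion. Part of this programme depends on the lipid receptor Trem2. Its surface and secreted products include pattern receptors, tetraspanins that organise receptors in the membrane and label exosomes, and secreted proteins that act on the matrix, on sugars or on proteases. Several of the 10 genes are not restricted to microglia. Lyz2 is abundant in neutrophils and monocytes, Cst7 is also made by natural killer (NK) cells, Cd52 is carried by lymphocytes, and Cd9 and Serpine2 are made by glia and vascular cells too.

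The RNA was from CD11b+ cells, and markers of microglia were abundant in each sample. Csf1r, the growth factor receptor that microglia depend on, ranged from 11844 to 13556 CPM (counts scaled with TMM factors to a common library total) over the 6 samples, and Tmem119, a microglial surface marker, from 2179 to 2640 CPM. Total counts were between 15158342 and 15746606 per sample. NS replicate 3 stood apart from the other NS samples, with a mean chi-square per gene of 20.3 and 23.2 against them where these differed from each other by 5.68. Neutrophil markers without Csf3r, which microglia also express, summed to 779 CPM in NS replicate 3 against 201 and 207 CPM in the other NS samples. Choroid plexus markers summed to 10039, 8423 and 1059 CPM in NS replicates 1 to 3 and to 3334, 17.9 and 861 CPM in 4LPS replicates 1 to 3, so results below that rest on single samples are given without them as well. With bulk RNA, a change in the number of cells of a type and a change in RNA per cell cannot be told apart.

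Between NS and 4LPS, 9 of the 10 genes rose and 0 fell (adjusted p under 0.05, edgeR's quasi-likelihood test with Benjamini-Hochberg adjustment over all genes tested). Over all genes, 9.95% passed the same test as higher, 6.43% as lower and 16.4% in either direction. The median log2 fold change was 0.97 over the 10 genes, with a range from 0.26 to 2.10, and -0.02 over all genes tested. In 9 of the 10 genes the lowest 4LPS sample lay above the highest NS sample, which was the case in 19.9% of all genes. The exception was Lgals3, and the gene that did not pass the test was Spp1. The calls were not equally steady. Cst7, Clec7a, Cd52, Cd63 and Serpine2 passed in each of the 21 alternative fits, whereas Cd9, Gpnmb and Lgals3 passed in 11 of 21, 11 of 18 and 10 of 21. Leaving out NS replicate 1 left 5 of the 10 genes called. Over all genes it left 781 higher and 369 lower, in place of 1308 and 845.

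**Figure D1:**
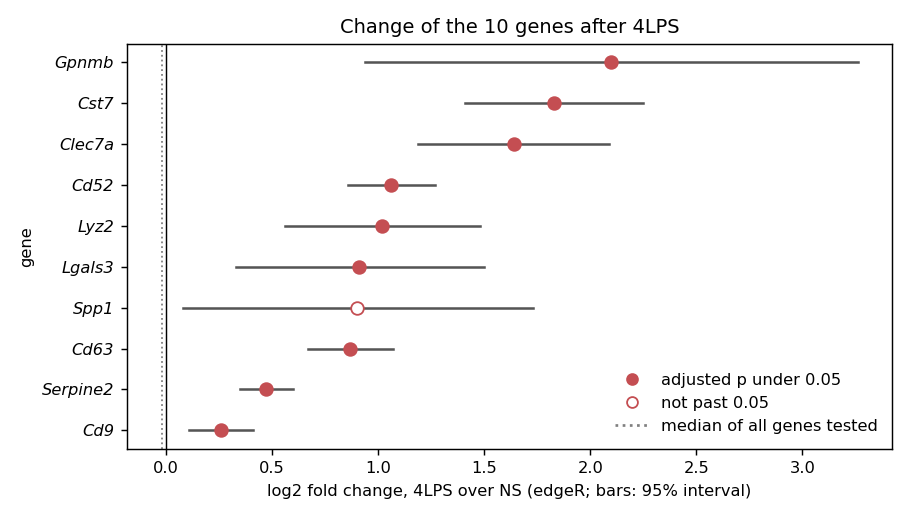
Log2 fold change of each of the 10 genes (x axis, 4LPS over NS, edgeR) with its 95% interval. Filled points passed an adjusted p of 0.05 and the open point, Spp1 at 0.90, did not, and the dotted line marks the median of all genes tested at -0.02.

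The promoters of the genes are shown for Cst7 and Clec7a, the secreted and the surface protein gene with the largest fold change among those called in every fit, and for Lyz2, which had the highest mean FPKM after 4LPS. The RefSeq promoter table (GRCm38.p6) matched 9 of the 10 genes with 11 entries, and each entry runs from 250 bases before to 50 bases after a start of transcription. The 250 bases before the start are printed 5′ to 3′ on the gene's own strand, from chr2:150570165-150570414 (plus strand), chr6:129472780-129473029 (minus strand) and chr10:117282273-117282522 (minus strand), and capitals mark matches to an ETS core (GGAAGT) or an AP-1 site (TGANTCA), searched on both strands.
Cst7: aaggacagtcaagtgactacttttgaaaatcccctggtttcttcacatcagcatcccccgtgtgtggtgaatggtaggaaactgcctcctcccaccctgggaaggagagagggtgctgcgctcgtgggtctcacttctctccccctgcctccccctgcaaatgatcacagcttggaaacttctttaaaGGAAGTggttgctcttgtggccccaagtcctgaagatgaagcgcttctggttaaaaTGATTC
Clec7a: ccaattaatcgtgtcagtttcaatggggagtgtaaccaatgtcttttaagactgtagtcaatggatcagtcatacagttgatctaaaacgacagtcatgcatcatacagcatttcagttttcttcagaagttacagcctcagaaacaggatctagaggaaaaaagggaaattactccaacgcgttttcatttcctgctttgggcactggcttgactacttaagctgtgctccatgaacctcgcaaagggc
Lyz2: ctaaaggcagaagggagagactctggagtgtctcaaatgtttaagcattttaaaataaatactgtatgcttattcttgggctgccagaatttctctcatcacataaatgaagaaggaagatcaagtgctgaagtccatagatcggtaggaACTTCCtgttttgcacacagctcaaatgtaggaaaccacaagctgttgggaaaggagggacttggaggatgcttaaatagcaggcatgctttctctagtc
Cst7 held an ETS core 62 bases and an AP-1 match 6 bases before the start, and the last base of the latter lies past the printed stretch. In Lyz2 an ETS core on the opposite strand, read as ACTTCC, began 100 bases before the start. Neither motif was found in the Clec7a window. Over the 11 entries the ETS core was found in 4 genes, Cst7, Lyz2, Spp1 and Cd63, in 1 entry each. By window, it was in 23.8% of all 32851 windows of the table and in 27.7% of those of tested genes. AP-1 was found in Cst7 and Gpnmb and in 7.81% of all windows, or 5.13% of those of tested genes. Of 3 other motifs searched, an interferon-response repeat was found in Spp1 and in 3.44% of all windows, and the E-box CACGTG (7.15% of windows) and an NF-kB motif (0.411% of windows) were found in 0 of the 9 genes. In windows of tested genes these shares were 3.23%, 9.59% and 0.451%.

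Among the surface proteins, Clec7a, which encodes dectin-1, the receptor for fungal beta-glucan, changed most among those called in every fit (chr6:129438554-129449742 in GRCm39, minus strand, 5 exons). It was at 20.0, 21.9 and 32.7 CPM in the NS samples and at 67.0, 74.5 and 91.5 CPM in the 4LPS samples. The groups did not overlap, and the highest sample of each was replicate 3. The means were 24.9 ± 6.86 and 77.7 ± 12.5 CPM (SD, n = 3 per group), a log2 fold change of 1.64 ± 0.19 (SE), or 3.12-fold (adjusted p = 0.00132, edgeR). It passed in 21 of 21 alternative fits.

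Cd52 encodes a short peptide that carries a GPI anchor and a large sugar chain (chr4:133809759-133822401, minus strand, 2 exons). Its levels were 40.0, 36.7 and 42.5 CPM in NS and 84.2, 74.8 and 90.2 CPM in 4LPS. The groups were far apart beside their spread, and Cd52 had the smallest adjusted p of the 10 genes (2.09-fold, log2 fold change 1.06 ± 0.09, adjusted p = 2.10e-04, edgeR). Summed NK cell markers averaged 6.98 CPM in NS and 109 CPM in 4LPS, with 9 of 9 called higher. T cell markers averaged 5.11 and 19.4 CPM, with 4 of 4 tested called higher, and B cell markers 16.7 and 21.4 CPM, with 0 of 1. The part of lymphocytes in the rise of Cd52 was not tested.

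Cd63, a tetraspanin of late endosomes and exosomes (chr10:128731528-128748709, plus strand, 8 exons), was at 202, 194 and 162 CPM in NS and at 328, 327 and 362 CPM in 4LPS. NS replicate 3, the highest NS sample for most of the 10 genes, was the lowest for Cd63. Cd63 rose 1.82-fold (log2 fold change 0.87 ± 0.09, adjusted p = 5.72e-04, edgeR).

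Cd9, a tetraspanin of the plasma membrane (chr6:125437210-125471778, minus strand, 8 exons), showed the smallest change of the 10 genes. It was at 632, 606 and 667 CPM in NS and at 728, 739 and 813 CPM in 4LPS, 1.2-fold (log2 fold change 0.26 ± 0.06, adjusted p = 0.0312, edgeR). No 4LPS sample reached down into the NS range, but the gap was small. The call was lost with no composition factor (0.16, adjusted p = 0.0863), with limma on FPKM (0.17, adjusted p from 0.118 to 0.188), and without NS replicate 1 (adjusted p = 0.0965), NS replicate 2 (0.0942), 4LPS replicate 2 (0.0536) or 4LPS replicate 3 (0.0659). It was also lost with the summed choroid plexus markers as a covariate, a fit added after the data were seen (0.25, adjusted p = 0.105). In the same samples the summed astrocyte markers were at 283, 305 and 302 CPM in NS and at 229, 240 and 210 CPM in 4LPS, and 4 of 7 were called lower. Endothelial markers summed to 445, 359 and 629 CPM against 168, 189 and 331 CPM, with 2 of 7 called lower. The part of these cells in the levels of Cd9 and Serpine2 was not tested.

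The ratio of the tetraspanins was set within each sample, on FPKM, the authors' values per length of transcript. Cd63 was at 47.3%, 47.4% and 36.1% of Cd9 in NS and at 66.9%, 65.3% and 66.7% in 4LPS. The groups did not overlap, and the 4LPS samples were close to each other.

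Gpnmb encodes a glycoprotein of endosomal and plasma membranes that can be shed (chr6:49013426-49047863, plus strand, 11 exons). It was the least abundant of the 10 genes, with 6, 14 and 12 counts in NS and 65, 20 and 43 counts in 4LPS. In CPM these were 0.378, 0.88 and 0.744 in NS and 4.38, 1.36 and 2.92 in 4LPS. The groups did not overlap, but the 4LPS samples differed widely among themselves. Its log2 fold change of 2.10 ± 0.50 was the largest of the 10 genes (4.29-fold, adjusted p = 0.0275, edgeR) and its 95% interval ran from 0.94 to 3.26. At this depth the NS samples by themselves would not have carried Gpnmb past the filter on low counts. Without a filter the adjusted p was 0.0246 in edgeR and 0.081 in limma on log2(FPKM + 1), where the log2 difference was 0.56. Gpnmb lay between 0.11 and 1.22 FPKM, so the added 1 shrinks that difference and it cannot be set against 2.10. The call was lost without NS replicate 1 (adjusted p = 0.0952), NS replicate 2 (0.056), 4LPS replicate 1 (0.0786) or 4LPS replicate 3 (0.077), and with limma-voom (0.0567). With the choroid plexus covariate the log2 fold change was 2.63 and the adjusted p 0.0103 (edgeR).

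Among the secreted proteins, Cst7 encodes cystatin F, an inhibitor of lysosomal cysteine proteases that is taken to the endolysosome (chr2:150412284-150420864, plus strand, 4 exons). It was at 5.85, 7.36 and 6.82 CPM in NS and at 19.3, 22.1 and 30.0 CPM in 4LPS. The NS samples were close to each other and every 4LPS sample was well above them. Cst7 rose from 6.68 ± 0.761 to 23.8 ± 5.54 CPM, or 3.56-fold (log2 fold change 1.83 ± 0.18, 95% interval 1.41 to 2.25, adjusted p = 5.29e-04, edgeR). It passed in 21 of 21 alternative fits, with log2 fold changes between 1.63 and 1.97. NK cell markers summed to 6.17, 4.84 and 9.92 CPM in NS and to 109, 101 and 116 CPM in 4LPS, and 9 of 9 were called higher. Their part in the rise of Cst7 was not tested.

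Lyz2 encodes lysozyme, an enzyme that cleaves bacterial cell walls (chr10:117111557-117118346, minus strand, 4 exons). It was at 326, 303 and 486 CPM in NS and at 785, 603 and 872 CPM in 4LPS. All 4LPS samples exceeded all NS samples, with NS replicate 3 high and 4LPS replicate 2 low. Lyz2 rose 2.03-fold (log2 fold change 1.02 ± 0.20, adjusted p = 0.0125, edgeR), and without NS replicate 1 the adjusted p was 0.0564. Lyz1, the near-identical copy with which reads can be shared, had 39, 40 and 63 counts in NS and 99, 76 and 113 counts in 4LPS. As RSEM divided the reads, Lyz1 stayed between 0.753% and 0.878% of Lyz2 in the 6 samples, and how many reads matched both copies is not known. Lyz1 itself passed at a log2 fold change of 1.13 ± 0.25 (adjusted p = 0.0200, edgeR). Without NS replicate 1 (0.0743), NS replicate 2 (0.0643), 4LPS replicate 1 (0.054) or 4LPS replicate 3 (0.0724) it did not, nor with the summed neutrophil (0.117) or choroid plexus markers (0.0501) as a covariate.

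Lgals3 encodes galectin-3, a secreted lectin for beta-galactosides (chr14:47605208-47623624, plus strand, 6 exons). It was at 7.49, 7.42 and 12.4 CPM in NS and at 18.6, 12.4 and 20.4 CPM in 4LPS. The groups met at NS replicate 3 and 4LPS replicate 2, whose ratio was 0.998. The log2 fold change was 0.91 ± 0.25 (1.88-fold, adjusted p = 0.0462, edgeR), just under the threshold. It was lost with upper-quartile factors (adjusted p = 0.0505), with no composition factor (0.0549), with limma on FPKM (0.0588 to 0.0921), and without NS replicate 1 (0.15), NS replicate 2 (0.127), 4LPS replicate 1 (0.103) or 4LPS replicate 3 (0.133). With the choroid plexus covariate the log2 fold change was 1.00 and the adjusted p 0.0718.

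Neutrophil markers shared part of the pattern of Lyz2 and Lgals3 over the samples. The 10 neutrophil markers without Csf3r summed to 201, 207 and 779 CPM in NS and to 1230, 517 and 806 CPM in 4LPS, with NS replicate 3 high and 4LPS replicate 2 low as in these genes, but with replicate 1 and not replicate 3 as the highest 4LPS sample. The list as a whole had summed levels from 914 to 1476 CPM in NS and from 1379 to 2076 CPM in 4LPS. The 1 of its 11 markers that was called was Csf3r, and 0 of the other 10 passed. S100a8 was at 40.5, 35.7 and 154 CPM in NS and at 242, 94.1 and 144 CPM in 4LPS, and S100a9 was at 50.9, 56.8 and 219 against 337, 137 and 210 CPM. With the summed neutrophil markers as a covariate, a fit added after the data were seen, the log2 fold change was 0.65 for Lyz2 (adjusted p = 0.0401, edgeR) and 0.45 for Lgals3 (0.213). For Gpnmb the covariate gave 1.41 (adjusted p = 0.229, edgeR), for Cd9 0.21 (0.189) and for Spp1 0.52 (0.467). For Cst7 and Cd63 the log2 fold change was larger with it, at 1.86 (0.0085) and 1.01 (0.00159). For the others of the 10 genes it was smaller. The summed markers averaged 396 CPM in NS and 851 CPM in 4LPS, so this fit can absorb part of any group difference. Over all genes the higher calls fell with it from 1308 to 631. Monocyte markers summed to 184, 136 and 301 CPM in NS and to 255, 175 and 259 CPM in 4LPS, also with NS replicate 3 high and 4LPS replicate 2 low. The groups overlapped in the sums of neutrophil and of monocyte markers. Border macrophage markers summed to 1564, 1575 and 1588 CPM in NS and to 2140, 1705 and 1981 CPM in 4LPS, without overlap. Dendritic cell markers summed to 34.2, 27.0 and 56.9 against 62.1, 50.2 and 58.8 CPM, with overlap. Of the first, 3 of 11 were called higher, and of the second 5 of 8, beside 9.95% of all genes. What part these cells had in the levels of Lyz2, Lgals3 or the others of the 10 genes was not tested.

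**Figure D2:**
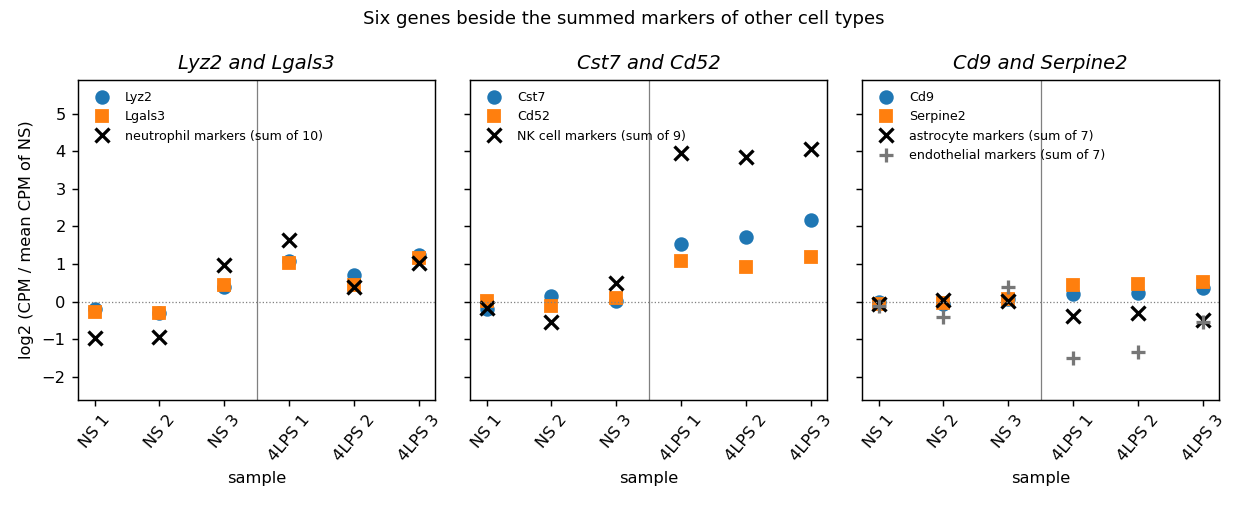
Log2 ratio of CPM to the mean of the NS samples (y axis) for each of the 6 samples (x axis). Lyz2 and Lgals3 stand beside the summed neutrophil markers, Cst7 and Cd52 beside NK cell markers at 109, 101 and 116 CPM in 4LPS, and Cd9 and Serpine2 beside astrocyte and endothelial markers.

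Spp1 encodes osteopontin, a secreted matrix protein that binds integrins and CD44 (chr5:104582165-104589235, plus strand, 7 exons). It was at 6.55, 3.27 and 9.05 CPM in NS and at 9.78, 9.58 and 15.9 CPM in 4LPS. No value of 1 group lay within the other, but the NS samples differed widely among themselves. Spp1 had a log2 fold change of 0.90 ± 0.36, or 1.87-fold (unadjusted p = 0.0355, adjusted p = 0.121, edgeR). It passed in 4 of 21 alternative fits, with DESeq2 (adjusted p = 0.0335), with the replicate number as a block (0.0193, or 0.0236 with a length correction as well), and without NS replicate 3 (1.26, adjusted p = 0.0356).

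Serpine2 encodes protease nexin-1, an inhibitor of thrombin and plasminogen activators (chr1:79763323-79839144, minus strand, 9 exons). It was at 533, 540 and 583 CPM in NS and at 748, 764 and 788 CPM in 4LPS. Both groups were tight, with coefficients of variation of 4.91% and 2.59%. The rise was small but far beyond that spread, 1.39-fold (log2 fold change 0.47 ± 0.06, adjusted p = 0.00124, edgeR).

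**Figure D3:**
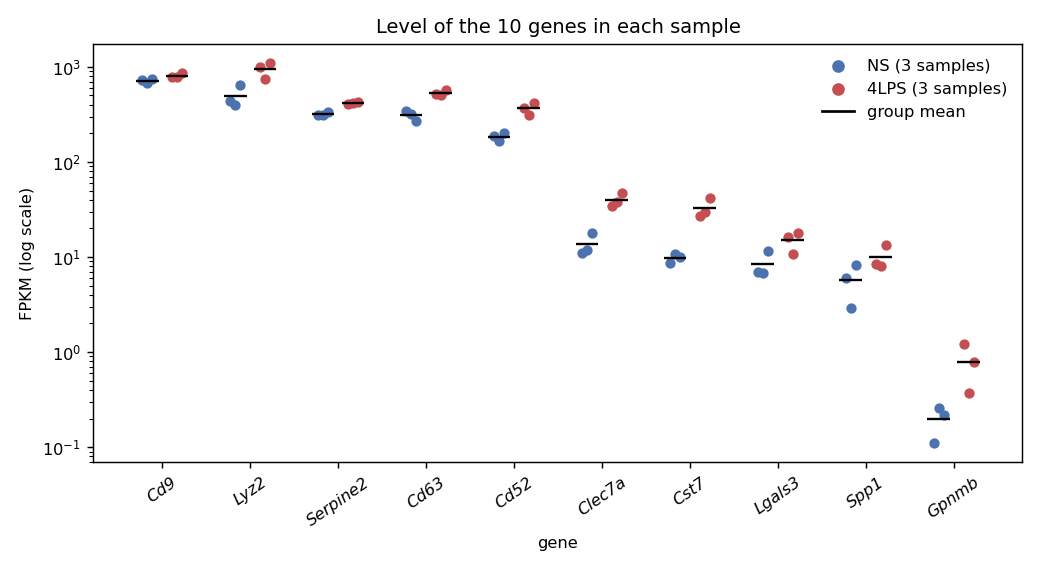
FPKM (y axis, log scale) of the 10 genes (x axis, ordered by the NS mean) in each of the 3 NS and 3 4LPS samples, with bars for the group means. Cd9 was highest in NS at a mean of 717 FPKM and Lyz2 in 4LPS at 945 FPKM, and Gpnmb was lowest in both groups.

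Per length, the genes spanned a wide range of levels. In NS the order of the mean FPKM was Cd9 (717 ± 37.3), Lyz2 (495 ± 134), Serpine2 (322 ± 14.3), Cd63 (311 ± 36.0), Cd52 (184 ± 17.6), Clec7a (13.6 ± 3.64), Cst7 (9.78 ± 1.02), Lgals3 (8.45 ± 2.61), Spp1 (5.70 ± 2.63) and Gpnmb (0.197 ± 0.0777). Serpine2 and Cd63, Cst7 and Lgals3, and Lgals3 and Spp1 overlapped in their sample values. In 4LPS the order was Lyz2 (945 ± 180), Cd9 (806 ± 50.7), Cd63 (534 ± 37.3), Serpine2 (419 ± 8.45), Cd52 (368 ± 52.8), Clec7a (39.9 ± 6.23), Cst7 (32.8 ± 7.81), Lgals3 (15.0 ± 3.76), Spp1 (9.98 ± 3.05) and Gpnmb (0.793 ± 0.425). Here Lyz2 and Cd9, Serpine2 and Cd52, Clec7a and Cst7, and Lgals3 and Spp1 overlapped. In rank among the 16516 genes by mean FPKM, Cst7 moved from 6695 to 2419 and Clec7a from 5464 to 1991. Cd9, in contrast, moved from 68 to 94, although its CPM was higher in each 4LPS sample than in any NS sample.

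Over the 10 genes the summed level was 1774, 1721 and 2002 CPM in NS and 2793, 2628 and 3086 CPM in 4LPS, a ratio of means of 1.55. The groups did not overlap, and the exact two-sided permutation test gave p = 0.1, the smallest that 3 samples against 3 allow. Cd9, Lyz2 and Serpine2 made up between 84.1% and 86.7% of the counts of the 10 genes in NS and between 80.1% and 81.0% in 4LPS. Without these 3 genes the sums were 282, 272 and 266 CPM in NS and 531, 521 and 613 CPM in 4LPS. Replicate 3 was the highest 4LPS sample for 9 of the 10 genes, the exception being Gpnmb, where it was replicate 1.

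The other genes of the DAM programme went the same way for the most part. Their list was chosen with earlier results of these data known, and it holds Itgax, which the paper had reported as upregulated. Its shares therefore describe these data and are no independent support. Ctsb, Ctsl and Ctsz stand both in it and in the list of cystatins and proteases below. Of 30 other DAM genes, 19 were called higher and 1 lower (63.3% and 3.33%, beside 9.95% and 6.43% of all genes), with a median log2 fold change of 0.57. Those with the smallest adjusted p were H2-D1, an MHC class I chain (log2 fold change 1.66 ± 0.07, adjusted p = 2.8e-05, edgeR), Apoe, the lipid carrier (2.69 ± 0.14, 3.7e-05), and B2m, the partner of class I chains (0.84 ± 0.05, 6.6e-05). The one lower gene, Ank, had a log2 fold change that no longer passed without any 1 of the 6 samples (adjusted p from 0.0593 to 0.12). With the neutrophil covariate, 11 of the 30 were called higher, where the higher calls over all genes fell from 1308 to 631. Of 15 genes of resting microglia, 0 were called higher and 5 lower (Slc2a5, P2ry13, P2ry12, Cst3 and Selplg), with a median of -0.19. Without any 1 of the 4LPS samples 3 of these remained called, since Cst3 (adjusted p from 0.0534 to 0.0934) and Selplg (0.0962 to 0.151) did not pass, and Selplg also did not pass without NS replicate 1 (0.09) or NS replicate 2 (0.101).

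**Figure D4:**
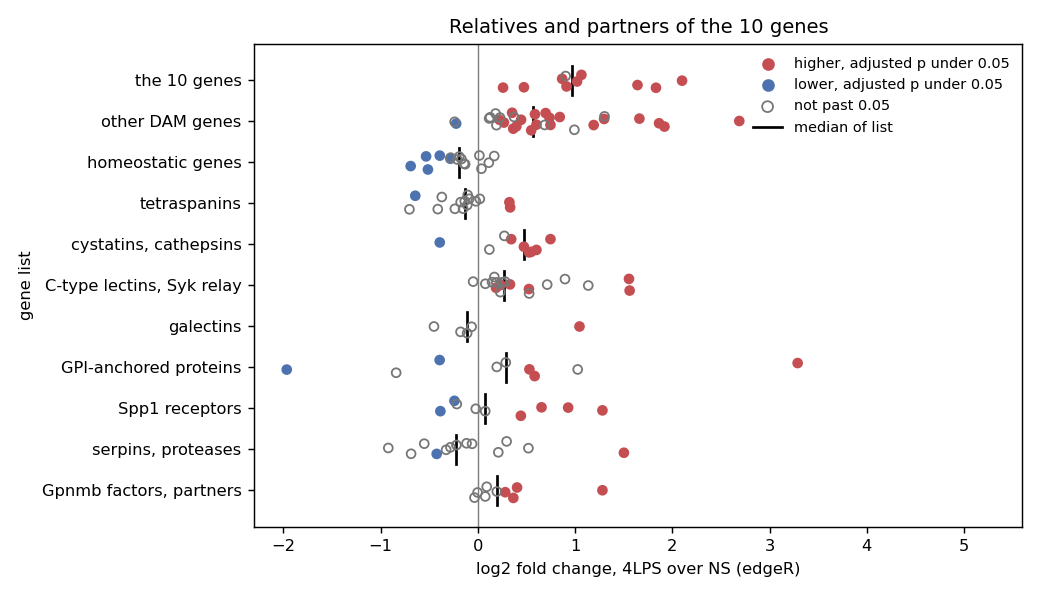
Log2 fold change (x axis, 4LPS over NS, edgeR) of the 10 genes and of the tested genes in each list of relatives and partners (y axis), with the 10 genes left out of the other lists. Red points passed as higher and blue points as lower, open points did not pass, and black bars mark list medians, from -0.22 for serpins and proteases to 0.97 for the 10 genes.

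The relatives and partners of the 10 genes did not move as a block. Over 86 tested genes of these lists, 27 were called higher, 7 lower and 52 did not pass, with a median of 0.18. Of all genes tested, 9.95% were called higher and 6.43% lower. With the neutrophil covariate the calls of these lists were 15 and 3. Over all genes the calls fell with it from 1308 higher and 845 lower to 631 and 305. Of the genes named below, Cst3 (0.142), Prnp (0.0656), Cd59a (0.401), Itga4 (0.102), Cd44 (0.0884), F2r (0.0688), Serpinf1 (0.0966), Adam10 (0.204) and Sdc4 (0.107) no longer passed with it (adjusted p, edgeR). Their log2 fold change was smaller in size with it, except for Prnp (-0.40), Serpinf1 (-0.44) and Sdc4 (0.44). With the choroid plexus covariate, Cst3 (0.0535), Cd59a (0.21), Cd44 (0.0664), Itga9 (0.0607), Serpinf1 (0.0918), Adam10 (0.144) and Sdc4 (0.0923) did not pass. Without 4LPS replicate 2 the lower calls were 3 (363 over all genes), and without 4LPS replicate 3 they were 4 (436 over all genes).

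Of 15 other tetraspanins, 2 were higher, Cd82 (log2 fold change 0.32 ± 0.05, adjusted p = 0.00476, edgeR) and Cd81 (0.33 ± 0.06, 0.0111), both membrane organisers like Cd9. Tspan13 was lower (-0.64 ± 0.07, 7.28e-04) and the median was -0.13. The shares, 13.3% higher and 6.67% lower, were near the 9.95% and 6.43% of all genes. Cd81 averaged 1176 ± 66.0 CPM in NS against 1480 ± 39.0 CPM in 4LPS.

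Cystatin F acts on cathepsins. Of the 9 tested genes in the list of cystatins and their target proteases, 6 were higher (66.7%) and 1 lower (11.1%). Over all genes these shares were 9.95% and 6.43%. Those higher were led by the cathepsin genes Ctsl (log2 fold change 0.75 ± 0.07, adjusted p = 4.70e-04, edgeR), Ctsz (0.60 ± 0.07, 0.00173) and Ctsh (0.53 ± 0.07, 0.00174). Cst3, which encodes the general secreted inhibitor cystatin C, was the gene that was lower (-0.39 ± 0.08, 0.0152). This call was lost without 4LPS replicate 1 (0.0534), 4LPS replicate 2 (0.0934) or 4LPS replicate 3 (0.0698). Within samples, the FPKM of Cst7 was 0.0354%, 0.0408% and 0.0414% of Cst3 in NS and 0.146%, 0.173% and 0.230% in 4LPS, so cystatin F mRNA stayed a small amount beside that of cystatin C.

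Dectin-1 passes its signal to the kinase Syk and the adaptor Card9. Of 18 C-type lectins and genes of this relay, 6 were higher (33.3%) and 0 lower, with a median of 0.27. Over all genes, 9.95% were higher and 6.43% lower. Clec9a, among the 6, is also in the list of dendritic cell markers. The receptors Clec4a1 (1.55 ± 0.17, adjusted p = 9.71e-04, edgeR) and Clec4a3 (0.52 ± 0.07, 0.0021) and the kinase gene Prkcd (0.33 ± 0.06, 0.00854) had the smallest adjusted p. Syk itself rose by a log2 fold change of 0.19 ± 0.04 (0.0245), and Card9 was at 0.08 (0.33). The FPKM of Clec7a was 14.6%, 15.4% and 23.3% of Syk in NS and 42.9%, 45.5% and 58.5% in 4LPS, with no overlap.

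Of the other galectin genes, Lgals1, Lgals4, Lgals8 and Lgals9, 0 of 4 passed, with Lgals8 at -0.11 and Lgals4 at -0.45. Lgals3bp, which encodes a secreted glycoprotein that binds galectin-3 and is no galectin itself, was higher (1.04 ± 0.08, adjusted p = 2.03e-04, edgeR), and the median of the 5 genes was -0.11. Among 9 small GPI-anchored proteins, the class of Cd52, Thy1 (3.29 ± 0.27, 2.03e-04), Cd14 (0.58 ± 0.07, 0.00108) and Cd48 (0.53 ± 0.08, 0.00386) were higher. Thy1, a marker of T cells and neurons, averaged 0.833 ± 0.309 CPM in NS against 8.22 ± 0.352 CPM in 4LPS, beside T cell markers that summed to between 4.34 and 6.14 CPM in NS and between 18.1 and 20.6 CPM in 4LPS. NK cell markers summed to between 4.84 and 9.92 CPM in NS and between 101 and 116 CPM in 4LPS. Which cells held the Thy1 RNA was not tested. Prnp (-0.39 ± 0.07, 0.0114) and Cd59a (-1.97 ± 0.56, 0.0498) were lower. Of these 9 genes, 33.3% were higher and 22.2% lower, beside 9.95% and 6.43% of all genes. Leaving out NS replicate 1 (0.158), NS replicate 2 (0.107), replicate 2 of 4LPS (0.144) or its replicate 3 (0.151) ended the call of Cd59a.

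Of 9 osteopontin receptor genes, 4 were higher (44.4%) and 2 lower (22.2%), beside 9.95% and 6.43% of all genes. Itga5 (0.65 ± 0.06, adjusted p = 4.70e-04, edgeR), Itgb5 (0.44 ± 0.07, 0.00476), Itga4 (0.93 ± 0.22, 0.0264) and Cd44 (1.28 ± 0.33, 0.0381) rose, and Itgav (-0.39 ± 0.05, 0.00333) and Itga9 (-0.24 ± 0.05, 0.0200) fell. These encode integrin chains, except Cd44, the hyaluronan receptor. For Itga4 the adjusted p was 0.0966 without NS replicate 1, 0.0723 without NS replicate 2, 0.0693 without 4LPS replicate 1 and 0.081 without 4LPS replicate 3. For Cd44, leaving out the same 4 samples gave 0.127, 0.105, 0.0876 and 0.111. With the neutrophil covariate, the log2 fold change was 0.65 for Cd44 (0.0884) and 0.50 for Itga4 (0.102). The call of Itga9 was lost when NS replicate 2 (0.0559), replicate 2 of 4LPS (0.0732) or its replicate 3 (0.0769) was left out. Spp1 was at 326%, 170% and 210% of the FPKM of Cd44 in NS and at 131%, 203% and 204% in 4LPS, with overlapping groups.

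Of 13 genes of serine protease control around Serpine2, F2r, the thrombin receptor, was higher (1.5 ± 0.28, adjusted p = 0.0101, edgeR) and Serpinf1 lower (-0.42 ± 0.09, 0.0198). F2r was scarce, with 1.81 ± 0.582 CPM in NS and 5.15 ± 0.797 CPM in 4LPS, and the median of the list was -0.22. Each direction held 7.69% of the list, near the 9.95% higher and 6.43% lower of all genes. Thbd, which encodes thrombomodulin, did not pass (-0.92, 0.056). Without NS replicate 1 (0.0766), NS replicate 2 (0.0533), 4LPS replicate 2 (0.0857) or 4LPS replicate 3 (0.0852) Serpinf1 did not pass.

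Gpnmb is a target of the MiT/TFE factors, which drive lysosomal genes. Of these, Mitf (-0.03), Tfeb (0.19), Tfe3 (-0.00) and Tfec (0.09) did not pass. Among 9 tested genes of this list, Adam17 (0.40 ± 0.04, adjusted p = 7.58e-04, edgeR) and Adam10 (0.28 ± 0.07, 0.0344), which encode sheddases, rose, as did Cd44 and the heparan sulphate proteoglycan gene Sdc4 (0.36 ± 0.10, 0.0453). In this list 44.4% were higher and 0% lower, beside 9.95% and 6.43% of all genes. Adam10 passed only without NS replicate 3 when 1 sample was left out (other adjusted p from 0.059 to 0.111). Sdc4 passed only without NS replicate 1 (others 0.0688 to 0.131).

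Patterns over the 6 samples were compared with those of all genes with a mean of at least 5 CPM, by the root mean square difference of centred log2 CPM. The nearest genes were Cd22 for Cst7 (0.146), Cd244a for Clec7a (0.128), Susd1 for Cd52 (0.049), Rpl29 for Cd63 (0.062), B4galt7 for Cd9 (0.021), Cfp for Lyz2 (0.081), Gpx3 for Gpnmb (0.269), Top2a for Lgals3 (0.072), Pmaip1 for Spp1 (0.223) and Tpd52 for Serpine2 (0.026). Each was chosen out of 10256 genes, or 10257 for Gpnmb. Within the 10 genes, Lyz2 and Lgals3 were closest, at 0.102.

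**Figure D5:**
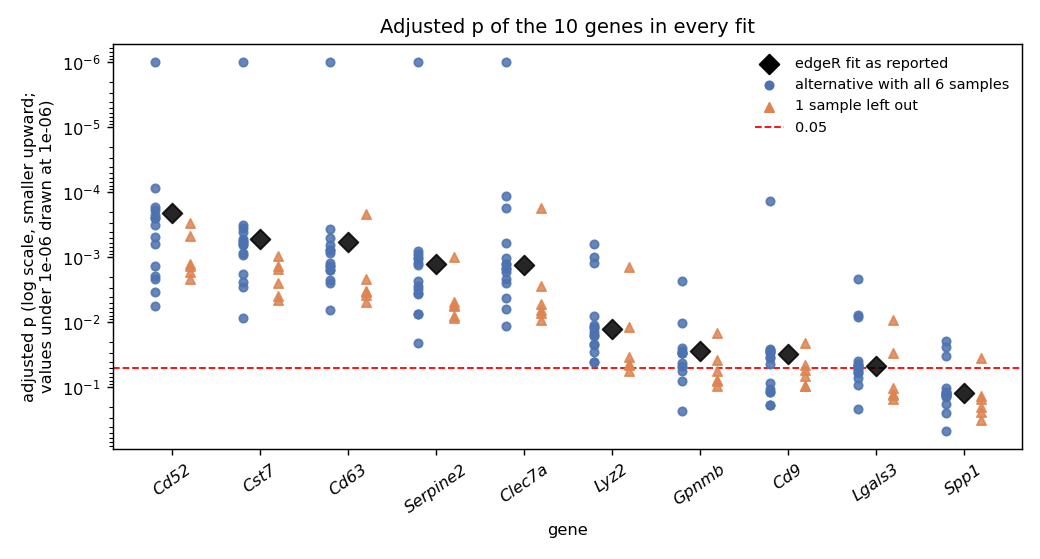
Adjusted p (y axis, log scale, smaller values higher) of the 10 genes (x axis) in the fit as reported, in alternatives with all 6 samples and with 1 sample left out, with the threshold as a dashed line. The points of Cst7, Clec7a, Cd52, Cd63 and Serpine2 lie past 0.05 in each fit, and those of Cd9, Gpnmb, Lgals3 and Spp1 lie on both sides of it.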

How the data were processed

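RNA-seq was performed on CD11b+ cells from 3 NS and 3 4LPS samples, grouped by the sample labels. The authors mapped reads with HISAT2 2.0.4 and Bowtie2 2.2.5 (the methods name mm39, and the submitters' notes add mm10) and estimated expression with RSEM 1.2.8. For the gene annotation, no name was found (not given in the sources used here). In 1 table the authors deposited expected counts, FPKM, TPM and a normalised signal. TPM, the normalised signal and the authors' group means were not used, and FPKM served to compare levels between genes. Expected counts (2.77% not whole) were rounded and tested in R 4.3.3 with edgeR 4.0.16, with TMM factors, filterByExpr, the quasi-likelihood test, and p-values were adjusted by Benjamini-Hochberg over 13151 genes. CPM are scaled with the TMM factors. To obtain the SE, the log2 fold change was divided by the root of F. Fewer genes changed by a small fold are found: in simulated data for 4LPS against NS over 13151 genes, 47.8% of 67 genes changed 1.5-fold, 71.6% of 67 changed 2-fold and 95.2% of 62 changed 4-fold were called, with 11 false calls among 150. The data gave 2153 calls, so the adjustment was stricter in the simulation and its shares do not carry over directly to the reported test. Positions are from GENCODE (GRCm39). DESeq2 1.42.0 and limma 3.58.1 gave alternatives.

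The 10 genes and the lists were chosen with earlier results of these data known. Genes named are the 10, the 3 with the smallest adjusted p in each related list, each gene called where 5 or fewer passed in a direction, Lyz1, the nearest pattern to each of the 10 (mean of at least 5 CPM) and the leading markers of other cell types. Syk, Card9, Csf1r, Tmem119, the MiT/TFE factors and the markers without Csf3r were chosen after their values were seen. Separate pools of mice are the replicates, so p-values measure the spread between pools.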

Additional observations from a re-analysis of the deposited data

How the results depend on the processing

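With the 21 alternative fits, 49 named genes gave 1025 values of which 885 kept their side of the threshold, 127 no longer passed, 13 newly passed and 0 changed direction. The 2 covariate fits were chosen after the data were seen. Over all genes they called 631 higher and 305 lower (neutrophil) and 814 and 421 (choroid plexus), against 1308 and 845 as reported. Of the 10 genes, 9 were called higher, between 6 and 10 in the alternatives with all samples, and between 5 and 10 when a sample was left out. The ratio of their summed levels, 1.55, ranged from 1.48 to 1.62 when a sample was left out. Over all genes, leaving out a sample gave 781 to 1629 higher and 363 to 1215 lower calls. For other DAM genes the 19 higher calls were 11 with the neutrophil covariate and 13 to 21 with a sample left out. The 1 lower call was 0 with no filter on low counts, with DESeq2, with the replicate block and with the choroid plexus covariate, and from 0 to 0 with a sample left out. For related and partner genes, the 27 higher calls were 15 with the neutrophil covariate and 19 to 35 with a sample left out. Their 7 lower calls were 15 with no composition factor, 11 with DESeq2, 14 with limma on log2(FPKM + 1), 14 with a pseudocount of 0.1, 11 with no filter on FPKM, 12 with the replicate block, 11 with block and length correction, 3 with either covariate, and 3 to 9 with a sample left out. For resting microglia genes the 0 higher calls were 1 with DESeq2, and the 5 lower calls were 11 with no composition factor, 11 with DESeq2, 11 with limma on log2(FPKM + 1), 11 with a pseudocount of 0.1, 3 with either covariate, and 3 to 6 with a sample left out. The cause of these shifts was not tested, except that leaving out a sample leaves fewer samples. Without a composition factor the median of all genes shifted by -0.1 (log2), and of all calls 906 were higher and 1711 lower (34.6% higher) against 1308 and 845 (60.8%), with limma on log2(FPKM + 1) 823 and 1486 (35.6%). The labels number the replicates alike, and do not say whether the numbers pair the samples. Deviations of same-numbered samples correlated at 0.496, -0.253 and 0.109. Those of other pairs ran from -0.552 to 0.46, so these values cannot decide whether the samples were paired. With the replicate block, 10 of the 10 genes were called, the addition being Spp1 (0.95, adjusted p = 0.0193, edgeR), and 1275 genes were higher and 1081 lower in all. Depth limits Gpnmb most, with 6 to 14 counts per NS sample.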
